A study of Mus musculus with 14 samples.

Results

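The genes described here are the guidance genes of 7 families: semaphorins, plexins, EphA receptors, A-class ephrins, Slits, Unc5 receptors and netrins. The semaphorins are taken as a secreted class and a membrane-bound group. The members were taken by family name, from the gene symbols of the array's annotation. Slitrk, Ntng, Unc50 and Unc5cl, which the family rule does not take in, were left out. The families themselves were chosen with earlier results of these data known. In all, 54 of the 19938 genes measured were members: 7 class 3 semaphorins, 13 membrane semaphorins, 9 plexins, 9 EphA receptors, 5 A-class ephrins, 3 Slits, 4 Unc5 receptors and 4 netrins. Where a gene had several probe sets, as 4 members did, the one of highest mean signal over the 14 arrays stood for it.

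The study asked which genes respond in mouse embryonic stem (ES) cells, differentiating as embryoid bodies, when the transcription factors ER71/Etv2, GATA2 and Scl are switched on together by doxycycline. The labels name all 3 factors in the titles and only ER71/Etv2 and GATA2 in the descriptions. The groups of arrays compared were control day 2.25 (1 array) with induced 6 h (1 array), control day 2.5 (3 arrays) with induced 12 h (3 arrays), and control day 3 (3 arrays) with induced 24 h (3 arrays). Induced cells had 1 µg/ml doxycycline from day 2 on. Controls were cells of the same inducible lines without doxycycline, labelled wild-type in genotype, so that every group carried the inducible construct. Cells that had doxycycline but no inducible factors were not analysed here, and each difference therefore includes any effect of the drug itself. Replicates 1 and 2 came from the line iEGS and replicate 3 from the line iB1, and the design text speaks of independent experiments. The ES cells were kept on mouse embryonic fibroblasts before differentiation, and each array measured the RNA of many cells together, so that fewer cells of a type and less RNA per cell cannot be told apart in any value below.

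Guidance molecules were first studied for steering growing axons, and the same ligands and receptors act in the embryo on cell movement, on boundaries between tissues and on the routes of blood vessels. Semaphorins signal through plexins, and class 3 semaphorins mostly do so with a neuropilin as co-receptor. EphA receptors are tyrosine kinases that bind A-class ephrins, which are held in the membrane of the neighbouring cell by a lipid anchor. Slits bind Robo receptors, and netrins bind Dcc and Unc5 receptors. In vessels, Plxnd1 is the endothelial receptor of Sema3e, and Unc5b marks the tip cells of sprouts.

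Values are log2 signals, so that a difference of 1 is a doubling, and differences are induced minus control of the same day. A gene was called when limma's moderated test, fitted over the 12 arrays of the later days and adjusted over all 19938 genes by Benjamini-Hochberg, gave an adjusted p under 0.05. Signals of different genes are not set against each other as amounts of RNA, since each probe set has its own response. Their rank among all genes is used below only to mark brighter and dimmer probe sets. Arrays correlated with each other between 0.951 and 0.995. Replicate 3 of induced 24 h stood somewhat apart, with a mean correlation of 0.966 to the other arrays, where no other array was under 0.976, and an SD over genes of 1.91, where no other was under 2.04. The array at 0.976 was replicate 1 of the same group. In a fit with array weights, replicates 1 and 3 of induced 24 h had the lowest weights (0.2704 and 0.3182). The residual SD over all genes was also largest in induced 24 h, at 0.339 against 0.2 to 0.242 in the other groups. Etv2, Gata2 and Tal1 (the gene of Scl) were higher on every induced array than on any control array: Etv2 read 9.73 to 10.47 on the induced arrays and 6.77 to 8.05 on the controls, and Tal1 read 6.94 to 7.94 against 4.61 to 5.45.

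More guidance genes fell than rose, and most of the falls were called at 24 h and not at 12 h. At 12 h, 8 of 54 members passed the test (14.8%), where 1.39% of all genes did. Of these, 2 rose (0.813% of all genes rose) and 6 fell (0.577% of all genes fell). The arrays of the pair of groups did not overlap for 18 members (33.3%) at 12 h, against 14.5% of all genes. At 24 h, 23 members passed (42.6%), against 5.46% of all genes, with 3 that rose (2.03% of all genes) and 20 that fell (3.43% of all genes). Non-overlapping groups were found for 33 members (61.1%) at 24 h, against 18.5% of all genes. Over all 54 members the median difference was -0.04 at 12 h and -0.18 at 24 h, beside -0.01 and -0.00 over all genes. Because earlier results were known when the families were chosen, these shares describe the members and are no test of the families.

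In total 25 members were called at 12 h or 24 h: 6 at both times, 17 at 24 h and not at 12 h, and Sema3f and Unc5b at 12 h and not at 24 h. The other 29 passed in none of the 5 contrasts. The count at 12 h was 5 without replicate 1 and 2 without replicate 2 or without replicate 3. It was also 5 without any one array of induced 12 h and without replicate 3 of control day 2.5. The count at 24 h was 15 without replicate 2. With the replicate number as a block, 10 members were called at 12 h (2.21% of all genes) and 25 at 24 h (7.85% of all genes). Members were called more often where their signal was high: at 24 h, 17 of the 29 members at or above the median gene's signal passed (58.6%, against 8.18% of all genes in that range), and 6 of the 25 below it (24%, against 2.74%).

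**Figure D1:**
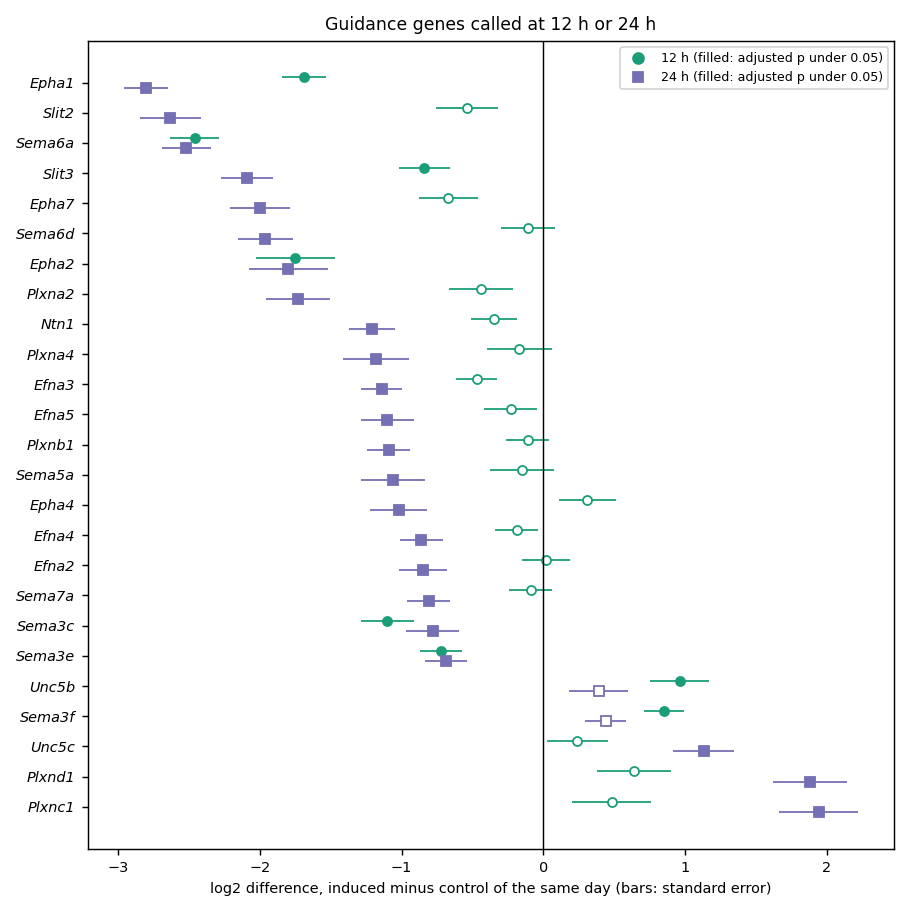
Log2 difference of induced against control cells of the same day, on the horizontal axis, for the 25 guidance genes called at 12 h (circles) or 24 h (squares), with bars of 1 standard error; filled symbols passed at an adjusted p under 0.05. Sema6a and Epha2 lie nearly as far to the left at 12 h as at 24 h, whereas Sema6d is near 0 at 12 h and at -1.96 at 24 h.

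Promoter sequences are shown for the largest rises and falls at 24 h with a single promoter entry in RefSeq (GRCm38.p6), because the induced factors bind DNA at ETS, GATA and E-box motifs. Of 54 members, 46 matched an entry, with 60 promoters among them. Each sequence is the 250 bases before the start site, 5′ to 3′ on the gene's strand, and capitals mark matches to the ETS motif (CGGAAG or AGGAAG, on either strand). The regions are Plxnc1 (chr10:94944846-94945095, minus strand), Plxnd1 (chr6:115995006-115995255, minus strand), Epha1 (chr6:42373269-42373518, minus strand) and Slit2 (chr5:47982905-47983154, plus strand).
Plxnc1: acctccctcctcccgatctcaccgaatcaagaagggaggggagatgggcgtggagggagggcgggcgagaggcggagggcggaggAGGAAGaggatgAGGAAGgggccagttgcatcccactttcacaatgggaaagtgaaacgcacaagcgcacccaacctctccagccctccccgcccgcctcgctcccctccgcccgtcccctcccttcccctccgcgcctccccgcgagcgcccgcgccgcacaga
Plxnd1: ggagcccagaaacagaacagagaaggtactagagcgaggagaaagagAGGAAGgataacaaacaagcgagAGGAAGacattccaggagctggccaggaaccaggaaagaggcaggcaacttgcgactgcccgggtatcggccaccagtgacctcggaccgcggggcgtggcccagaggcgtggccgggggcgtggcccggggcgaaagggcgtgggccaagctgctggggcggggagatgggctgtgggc
Epha1: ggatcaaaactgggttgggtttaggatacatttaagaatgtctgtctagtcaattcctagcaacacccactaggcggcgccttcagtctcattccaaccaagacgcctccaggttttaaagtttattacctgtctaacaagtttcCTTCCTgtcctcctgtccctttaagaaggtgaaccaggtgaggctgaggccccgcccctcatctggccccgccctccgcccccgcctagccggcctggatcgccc
Slit2: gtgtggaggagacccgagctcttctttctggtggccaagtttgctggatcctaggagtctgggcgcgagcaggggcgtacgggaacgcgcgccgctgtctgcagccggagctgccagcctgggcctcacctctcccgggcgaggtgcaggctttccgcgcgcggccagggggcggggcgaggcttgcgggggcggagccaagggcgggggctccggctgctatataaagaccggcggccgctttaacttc

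Plxnc1 holds ETS matches that begin 165 and 153 bases before the start, Plxnd1 at 203 and 180, and Epha1 has 1 at 105, on the other strand. Slit2 has none in this window. No match to the GATA motif (AGATAA or TGATAA, on either strand) lies in these 4 sequences. Over all 32851 promoters of the table, 39.2% held an ETS match, 16.6% a GATA match and 66.2% an E-box (CANNTG). In the 60 members' promoters the shares were 41.7%, 8.33% and 41.7%, where the median GC content was 64.4% against 52.4% over all promoters. An ETS match was in 2 of 3 promoters of members that rose at 24 h, 4 of 20 of members that fell and 19 of 37 of members not called. In the same order, a GATA match was in 0, 3 and 2 of these promoters, and an E-box in 1, 7 and 17. The 4 printed sequences, where E-boxes are not in capitals, held 1 in Plxnc1, 2 in Epha1 and 0 in Plxnd1 and Slit2. A promoter can count under more than 1 motif, and no binding was measured.

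At 6 h the widest gaps were those of Sema6a and Epha2. At this time, with 1 array a group and thus no test, no member was at least 2-fold higher in the induced cells (0.221% of all genes were) and 2 were at least 2-fold lower (0.135% of all genes). These were Sema6a, a transmembrane semaphorin that binds Plxna2 and Plxna4, with 7.22 induced against 8.97 control (3.37-fold), and Epha2, an ephrin-A receptor, with 6.85 against 8.25 (2.64-fold). At 1.5-fold the count was 6, with 2 higher (1.4% of all genes) and 4 lower (1.29% of all genes), adding Sema3c at -0.59, Sema7a at -0.64, Sema3f at 0.66 and Unc5b at 0.88. All 4 of Sema3c, Sema3f, Unc5b and Sema7a had the same sign in the later contrasts in which they were called.

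For Sema6a and Epha2 the gap between the groups at 12 h was close to that at 24 h. Sema6a read 9.34, 9.05 and 9.20 in control day 2.5 (replicates 1, 2 and 3, in this order throughout) and 6.64, 6.88 and 6.69 in induced 12 h. In control day 3 it read 9.37, 9.22 and 9.37, and in induced 24 h 7.21, 6.49 and 6.70. The induced arrays lay far below all control arrays at both times. The difference was -2.46 ± 0.173 (SE; limma adjusted p = 2.72e-06) at 12 h and -2.52 ± 0.173 (5.57e-07) at 24 h, or 5.51-fold and 5.74-fold.

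Epha2 read 8.55, 7.52 and 7.87 in control day 2.5 and 6.71, 6.01 and 5.97 in induced 12 h. At the later time it read 7.97, 7.79 and 7.33 in the controls and 6.30, 5.64 and 5.74 in induced 24 h. Each induced array was below every control array of its day, and replicate 1 was the highest array of each of these 4 groups. The difference was -1.75 ± 0.278 (limma adjusted p = 0.00307) at 12 h and -1.80 ± 0.278 (0.000856) at 24 h. The 12 h call was lost without replicate 2 or without replicate 3 (adjusted p of 0.0844 and 0.123), and the 24 h call without replicate 2 (0.0609).

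Epha1, the founding member of the EphA receptors, fell in steps. It read 8.58 in the control and 8.0 in the induced cells at 6 h. In control day 2.5 it read 9.03, 8.48 and 8.82, and in induced 12 h 7.31, 7.03 and 6.91. Control day 3 gave 9.09, 9.08 and 8.95, and induced 24 h gave 6.24, 6.21 and 6.26, the tightest group of any for this gene. The controls did not pass between the days (0.26, adjusted p = 0.937), while the induced cells fell further. The difference was -1.69 ± 0.156 (3.23-fold, limma adjusted p = 3.23e-05) at 12 h and -2.80 ± 0.156 (6.97-fold, 7.98e-08) at 24 h, the largest fall of any member.

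The rest of the EphA family divided into 2 further falls at 24 h and 5 members with no call. Epha7 read 6.86, 6.41 and 6.75 in control day 3 and 5.03, 4.63 and 4.36 in induced 24 h, a fall of 4-fold (-2.0 ± 0.211, limma adjusted p = 2.82e-05). At 12 h it read 6.72, 5.96 and 6.26 against 5.75, 5.47 and 5.72, groups that did not overlap. That difference of -0.67 was not called (adjusted p = 0.238) but passed with the replicate block (0.0319), and the adjusted p ranged from 0.0186 to 0.83 over the alternatives. Epha4 read 7.14, 6.54 and 7.10 in control day 3 and 6.33, 5.80 and 5.61 in induced 24 h (-1.02 ± 0.202, adjusted p = 0.0066). Its 12 h groups, 6.30, 5.90 and 5.93 against 6.34, 6.36 and 6.36, lay the other way round with no call. The Epha4 call at 24 h was lost without replicate 2 or 3 (0.0667 and 0.238). Epha3, Epha5, Epha6, Epha8 and Epha10 lay between 0.08 and 0.27 at 24 h, with Epha5 the highest at 0.27 ± 0.195 (adjusted p = 0.559).

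**Figure D2:**
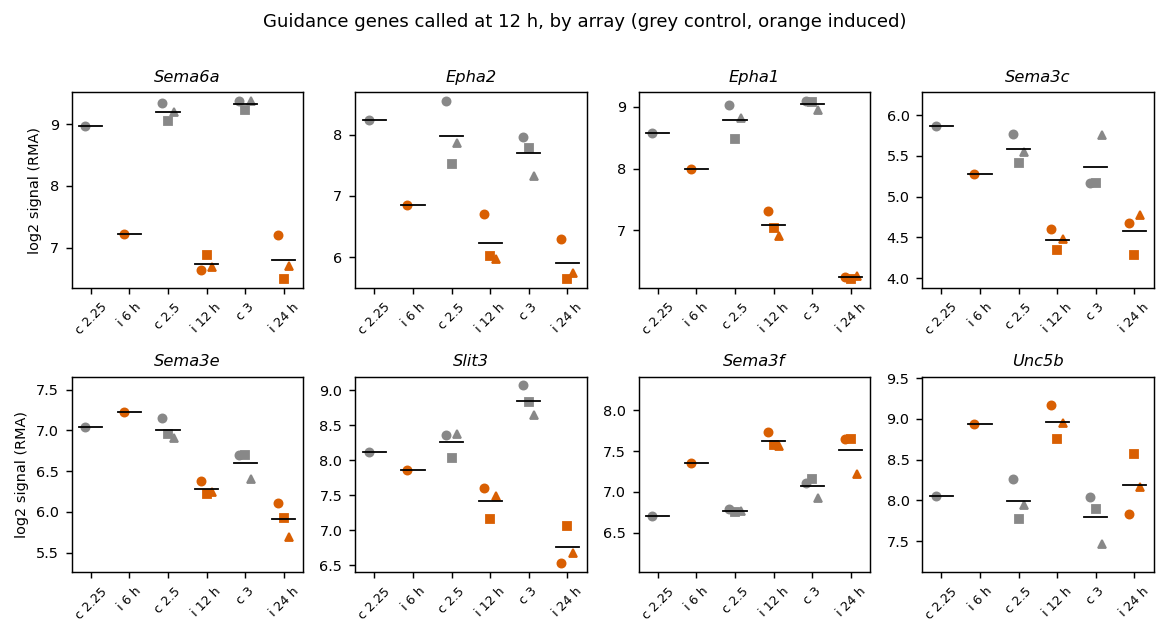
Log2 signal (vertical axis) of the 8 guidance genes called at 12 h on every array, by group (c control by day, i induced by hours; circle, square and triangle for replicates 1, 2 and 3; bar, mean). Sema6a, Epha2 and Epha1 lie lower on every induced array of a day than on its controls, and Sema3f and Unc5b lie higher at 12 h.

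Of the ligands of EphA receptors, 4 of 5 A-class ephrins fell at 24 h and none was called at 12 h. All 5 had a difference between the control days above 0, from 0.17 to 0.64, and none of those was called. Efna3 read 6.24, 6.35 and 6.17 in control day 3 and 4.88, 5.19 and 5.28 in induced 24 h, a difference of -1.14 ± 0.146 (limma adjusted p = 0.00017). Efna5 read 7.42, 7.31 and 7.42 against 6.40, 6.66 and 5.78 (-1.10 ± 0.188, 0.00214). Efna4 read 7.11, 7.21 and 7.17 against 6.20, 6.62 and 6.09 (-0.86 ± 0.149, 0.00236). For these 3 genes the induced arrays all lay below the controls, with the induced ones further apart from each other. Efna2 read 7.09, 6.89 and 6.66 against 5.96, 6.06 and 6.07 (-0.85 ± 0.17, 0.00688). The fifth ephrin, Efna1, read 6.55, 6.18 and 6.44 against 5.59, 6.04 and 5.90, a difference of -0.54 that was not called (0.0796) but passed with the replicate block (0.0473; 0.0473 to 0.39 over the alternatives). Calls were lost for Efna2 without replicate 2 (0.103) and for Efna4 and Efna5 without replicate 3 (0.109 and 0.0543).

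Among the secreted class 3 semaphorins, Sema3c and Sema3e fell at both times and Sema3f rose at 12 h. Sema3c, which guides neural crest cells into the outflow tract of the heart, read 5.77, 5.41 and 5.55 in control day 2.5 and 4.60, 4.34 and 4.48 in induced 12 h (-1.10 ± 0.186, limma adjusted p = 0.005). At 24 h the groups were 5.17, 5.17 and 5.76 against 4.68, 4.29 and 4.78 (-0.78 ± 0.186, 0.0217). Sema3e, the ligand of Plxnd1, read 7.15, 6.96 and 6.91 against 6.38, 6.22 and 6.25 at 12 h (-0.72 ± 0.148, 0.0226). At 24 h it read 6.70, 6.70 and 6.40 against 6.11, 5.93 and 5.69 (-0.69 ± 0.148, 0.0112). The groups of neither gene overlapped at either time. Sema3e lost its 12 h call without any one array of the groups compared and without replicate 1, 2 or 3 (adjusted p up to 0.561). Its 24 h call was lost without replicate 2 or 3, without replicate 1 or 2 of control day 3, and when the fit held those groups alone (up to 0.282). Sema3c lost its calls at both times without replicate 2 or 3, and at 24 h also without replicate 2 of induced 24 h, without replicate 3 of control day 3 and when the fit held those groups alone (up to 0.228).

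Sema3f, which acts through Nrp2, read 6.79, 6.75 and 6.76 in control day 2.5 and 7.73, 7.58 and 7.56 in induced 12 h. It was thus higher by 0.85 ± 0.144 (limma adjusted p = 0.00504), a call lost without replicate 1, 2 or 3 (up to 0.238). At 24 h it read 7.11, 7.16 and 6.93 against 7.65, 7.65 and 7.22, with a difference of 0.44 (0.116). That difference passed without replicate 3 of induced 24 h (0.0185), and its adjusted p ranged from 0.0046 to 0.567 over the alternatives. Sema3a read 4.87, 4.21 and 4.52 against 5.24, 5.06 and 5.23 at 12 h, a difference of 0.64 (0.372) that passed with the replicate block (0.0319; 0.0319 to 1 over the alternatives). Sema3b, Sema3d and Sema3g passed in no contrast.

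Of the membrane semaphorins other than Sema6a, Sema6d, Sema5a and Sema7a were called lower at 24 h and not at 12 h, and the rest did not pass. The 24 h difference minus the 12 h difference was not called for Sema5a (-0.91, limma adjusted p = 0.534) or Sema7a (-0.71, 0.315). Sema6d, a ligand of plexins in the developing heart, read 4.98, 4.58 and 4.95 in control day 2.5 and 4.98, 4.59 and 4.61 in induced 12 h, groups that overlap (-0.11, 0.999). It read 6.91, 6.14 and 6.49 in control day 3 and 4.51, 4.63 and 4.52 in induced 24 h. The late difference was -1.96 ± 0.191 (3.9-fold, limma adjusted p = 1.3e-05). Sema5a, a transmembrane semaphorin with thrombospondin repeats, read 6.75, 6.36 and 6.17 against 5.78, 5.34 and 4.98 (-1.06 ± 0.224, 0.00983), and its call was lost without replicate 2 or 3 or without replicate 1 of control day 3 (up to 0.173). Sema7a, which is lipid-anchored and binds Plxnc1, read 5.49, 5.41 and 5.68 against 4.55, 4.64 and 4.97 (-0.81 ± 0.15, 0.0039; 0.123 without replicate 2). None of these 3 genes' groups overlapped at 24 h. Sema5b, which was not called, read 4.92, 5.31 and 5.0 against 5.49, 5.82 and 5.60, and its difference of 0.55 (0.146) passed with the replicate block (0.0338) and without replicate 1 of control day 2.5. The adjusted p ranged from 0.0109 to 0.627 over the alternatives. Sema4a, Sema4b, Sema4c, Sema4d, Sema4f, Sema4g, Sema6b and Sema6c passed in no contrast.

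Plexins, the semaphorin receptors, moved in both directions at 24 h, with 3 of 9 lower and 2 higher, and none was called at 12 h. Plxna2, a receptor of Sema6a, read 8.28, 7.49 and 7.78 in control day 3 and 6.37, 5.93 and 6.05 in induced 24 h (-1.73 ± 0.223, limma adjusted p = 0.000181). Plxna4, which also binds Sema6a, read 6.63, 5.60 and 6.18 against 5.14, 4.54 and 5.17 (-1.18 ± 0.23, 0.0055; 0.0904 without replicate 3). Plxnb1, the receptor of Sema4d, read 7.54, 7.51 and 7.40 against 6.48, 6.65 and 6.06 (-1.09 ± 0.152, 0.000357). In all 3 the lowest control array lay above the highest induced one. Plxna1, Plxna3, Plxnb2 and Plxnb3 were not called, and Plxnb2 had the largest difference of these, -0.50 ± 0.187 (0.185).

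The rising plexins were Plxnc1 and Plxnd1. Plxnc1, the receptor of Sema7a, read 5.63, 5.46 and 5.12 in control day 2.5 and 6.39, 5.76 and 5.51 in induced 12 h, which overlap. It read 5.09, 5.10 and 4.92 in control day 3 and 7.70, 6.68 and 6.56 in induced 24 h. The gap at 24 h was 1.94 ± 0.276 (3.84-fold, limma adjusted p = 0.000423). Plxnd1 read 5.70, 5.76 and 5.53 against 6.79, 5.93 and 6.20 at 12 h and 6.19, 5.67 and 5.74 against 8.31, 7.69 and 7.23 at 24 h. At 12 h its groups did not overlap, but the difference of 0.64 was not called. The difference of 1.88 ± 0.26 at 24 h (3.67-fold, 0.000336) again had every induced array above every control. Replicate 1 was the highest induced array for both genes at both times. At 24 h each of these receptors was higher than in the controls and the ligand named for it above was lower: Sema7a with Plxnc1, and Sema3e with Plxnd1. Between the induced times Sema7a differed by -0.19 and Sema3e by -0.37, and neither was called. Between the control days they differed by 0.52 and -0.41, again with no call.

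Of the 3 Slits, Slit2 and Slit3 fell and Slit1 did not pass. Slit2, a Robo ligand, read 7.71, 7.25 and 7.63 in control day 3 and 5.13, 4.83 and 4.73 in induced 24 h (-2.63 ± 0.217, 6.21-fold, limma adjusted p = 2.73e-06). At 12 h it read 6.53, 5.58 and 5.89 against 5.28, 5.59 and 5.52, which overlap. Slit3 read 8.36, 8.04 and 8.38 against 7.61, 7.17 and 7.49 at 12 h, and 9.07, 8.83 and 8.65 against 6.53, 7.07 and 6.68 at 24 h. Its fall was -0.84 ± 0.181 (0.0309) at 12 h and -2.09 ± 0.181 (4.4e-06) at 24 h. The 12 h call was lost without replicate 1, 2 or 3, without any one array of induced 12 h, without replicate 1 or 3 of control day 2.5 and without replicate 2 of control day 3 (up to 0.453). Slit1 read 5.14, 4.92 and 4.80 against 3.79, 4.16 and 4.67 at 24 h, and its difference of -0.75 (0.0907) passed without replicate 3 of induced 24 h (0.0204) and without replicate 2 of control day 2.5. The adjusted p ranged from 0.00373 to 0.402 over the alternatives.

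Netrins and their receptors held 1 fall and 2 rises. Ntn1, the netrin of the floor plate, read 6.98, 6.74 and 6.86 in control day 3 and 5.55, 5.85 and 5.54 in induced 24 h, a fall of -1.21 ± 0.164 (limma adjusted p = 0.00027). Unc5b read 8.26, 7.77 and 7.95 in control day 2.5 and 9.17, 8.76 and 8.95 in induced 12 h, a rise of 0.96 ± 0.208 (0.0317). By 24 h it read 8.04, 7.90 and 7.47 against 7.83, 8.57 and 8.17, groups that overlap (0.39, 0.391). The 12 h call for Unc5b was lost without replicate 2 or 3, without any one array of induced 12 h, without replicate 2 or 3 of control day 2.5 and without replicate 2 of control day 3 (up to 0.403). Unc5c was called higher at 24 h and not at 12 h. It read 5.29, 4.89 and 5.34 in control day 3 and 6.83, 6.16 and 5.93 in induced 24 h. The difference was 1.13 ± 0.216 (limma adjusted p = 0.00489, and 0.156 without replicate 2). Its 24 h difference minus its 12 h difference was 0.89 and did not pass (0.518). Unc5a read -0.24 ± 0.175 (0.566) and Ntn5 0.39 ± 0.179 (0.305) as differences at 24 h, and Unc5d, Ntn3 and Ntn4 passed in no contrast.

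**Figure D3:**
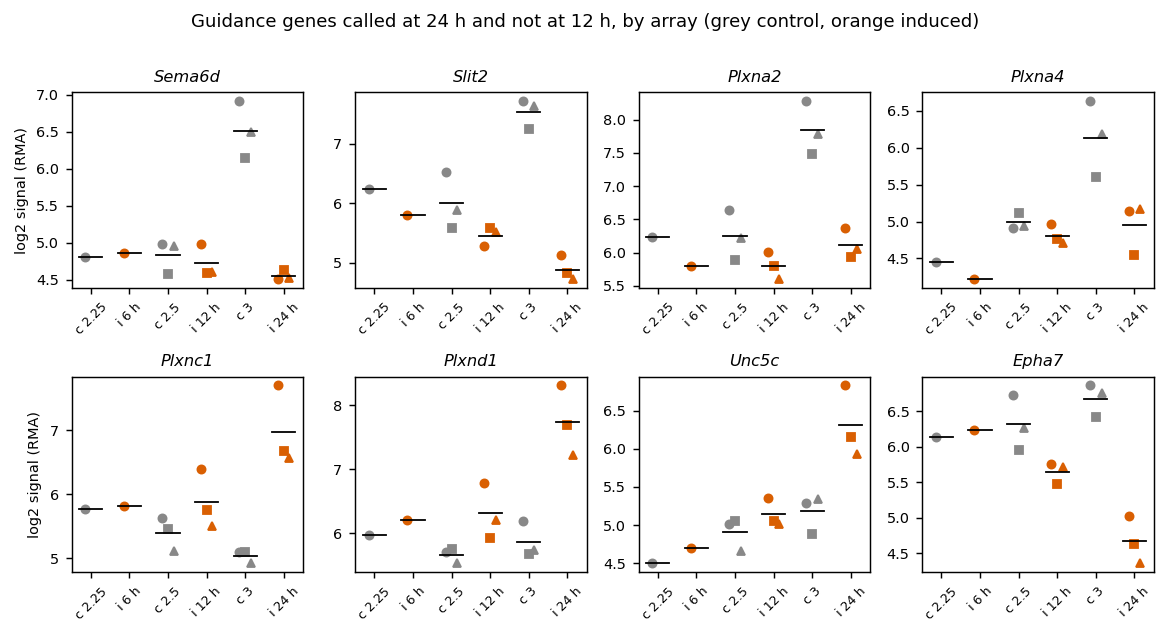
Log2 signal (vertical axis) on every array, by group, for guidance genes called at 24 h and not at 12 h (marks as in the plot of the early genes). Slit2, Sema6d and Plxna2 rise from control day 2.5 to control day 3 and stay low on the induced arrays, and Plxnc1, Plxnd1 and Unc5c rise on the induced arrays.

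Some of the genes called lower at 24 h and not at 12 h rose in the controls from day 2.5 to day 3. Of the 20 members called lower at 24 h, 17 had a difference above 0 between the control days, as 36 of all 54 members did. Differences between the control days and between the induced times were 0.67 and -0.19 for Ntn1, and 0.64 and -0.03 for Efna3. They were 0.52 and -0.19 for Sema7a, but 0.09 and -0.89 for Plxnb1. None of these genes was called between the control days. Between the control days 4 members were called (0.757% of all genes), all of them higher at day 3 (0.562% of all genes), and none lower (0.196% of all genes). They were Sema6d (1.68 ± 0.191, limma adjusted p = 0.00055), Plxna2 (1.60 ± 0.223, 0.00264), Slit2 (1.53 ± 0.217, 0.00273) and Plxna4 (1.15 ± 0.23, 0.0318). In the induced cells the differences between 12 h and 24 h for these 4 genes were -0.18, 0.32, -0.57 and 0.14, and none was called. The 24 h contrast and that between the control days share the arrays of control day 3. The count of 4 was 1 without replicate 2, 0 without replicate 3, and 7 without replicate 1 of induced 24 h. With the replicate block it was 9 (1.73% of all genes passed): Efna3, Epha4, Ntn1 and Sema3a were added as higher at day 3 and Sema4d as lower (-0.65, 0.0485).

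Plxna4 lost this call when the fit held the control groups alone, without replicate 1, 2 or 3, without any one array of control day 2.5, without replicate 1 or 3 of control day 3 and without replicate 2 or 3 of induced 12 h (adjusted p up to 0.565). The Sema6d call was lost without replicate 3 (0.063), and those of Plxna2 and Slit2 without replicate 2 or 3 (up to 0.165 and 0.242).

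Within the induced cells 5 members differed between 12 h and 24 h (1.81% of all genes did), 2 higher at 24 h (0.557% of all genes) and 3 lower (1.25% of all genes). Plxnd1 rose by 1.44 ± 0.26 (limma adjusted p = 0.0106) and Unc5c by 1.16 ± 0.216 (0.0122). Epha7 changed by -0.97 ± 0.211 (0.0298), Plxnb1 by -0.89 ± 0.152 (0.00727) and Epha1 by -0.85 ± 0.156 (0.0118). None of the 5 was called between the control days. With only the induced groups in the fit the count was 0, as it was without replicate 2 or without replicate 3. It was 2 without replicate 2 or 3 of induced 12 h and 8 without replicate 1. With the replicate block it was 9 (3.72% of all genes passed), but across these times same-numbered arrays deviated together for replicates 1 and 3 and not for replicate 2.

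The test of the change itself, the 24 h difference minus the 12 h difference, was passed by 3 members (0.426% of all genes passed), all of them more negative at 24 h (0.326% of all genes). Slit2 changed by -2.10 ± 0.308 (limma adjusted p = 0.0056), Sema6d by -1.85 ± 0.27 (0.0056) and Epha1 by -1.11 ± 0.221 (0.0447). For Slit2 and Sema6d the control rose between the days, and for Epha1 the induced cells fell. For Sema6a this change was -0.06 ± 0.244 (0.999) and for Epha2 -0.05 ± 0.393 (0.999), which did not pass. The count was 0 without replicate 2 or without replicate 3, and 10 with the replicate block (0.818% of all genes passed). The block added Epha4, Epha7, Plxna2, Plxnb1 and Slit3 as more negative and Plxnc1 and Plxnd1 as more positive. Epha1 lost its call in 17 of 25 alternatives, among them each of replicates 1, 2 and 3 left out and 11 of the 12 single arrays (the exception was replicate 1 of control day 2.5).

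**Figure D4:**
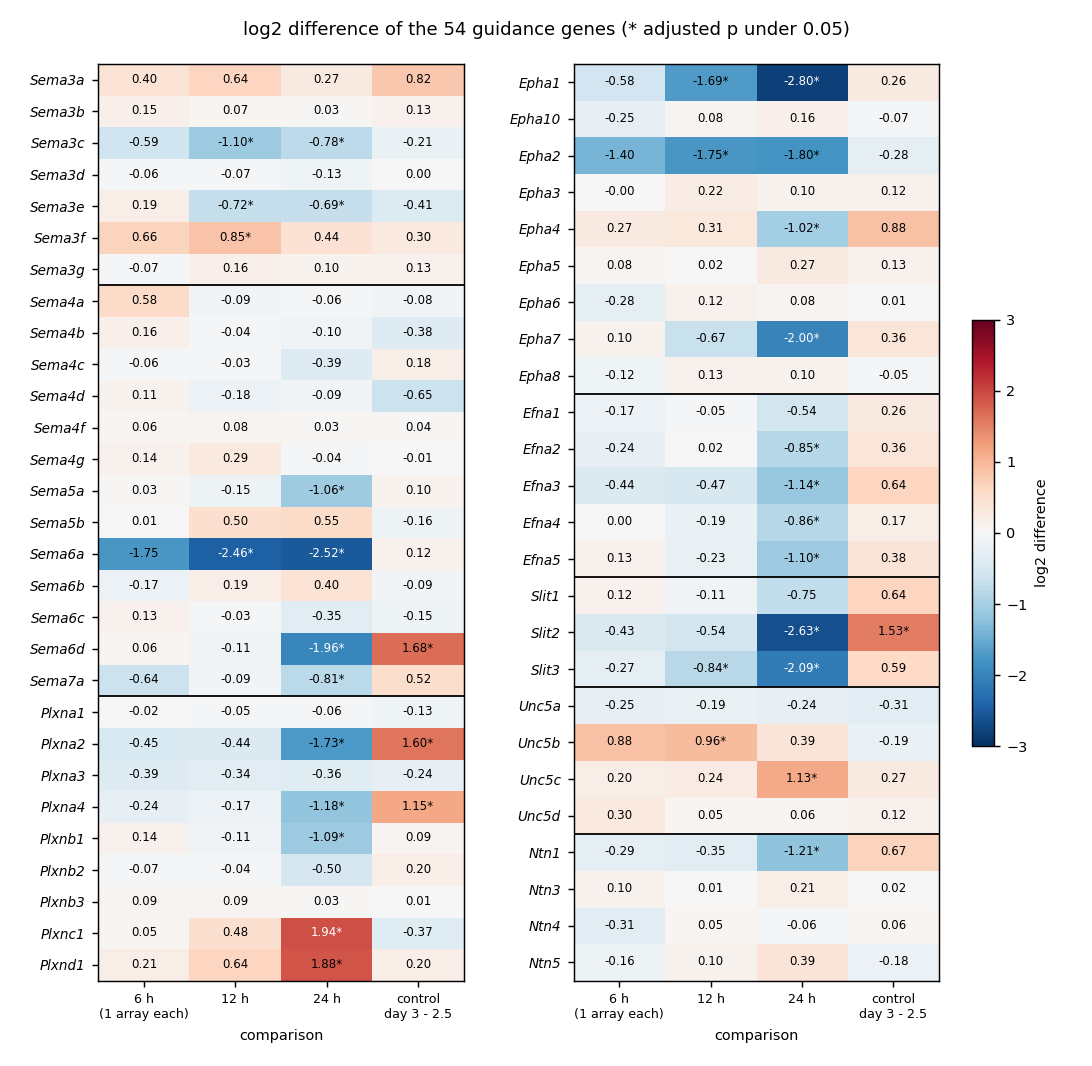
Heat map of the log2 difference (colour and number, scale from -3 to 3) of the 54 guidance genes (rows, lines between families) at 6 h, 12 h and 24 h of induction and between control day 3 and day 2.5 (columns); a star marks an adjusted p under 0.05. The 20 falls at 24 h lie in every family but the Unc5 receptors, among them 2 of 3 Slits and 4 of 5 A-class ephrins, and the 3 rises are Plxnc1, Plxnd1 and Unc5c.

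The 29 members that passed in no contrast lay between -0.34 and 0.64 at 12 h, between -0.75 and 0.55 at 24 h, and between -0.39 and 0.58 on the single arrays at 6 h. Of these, 19 had a mean signal below the median gene. Signals near the bottom of the range are compressed by the summary method, so that a difference in such a gene can be understated.

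Nrp1, Ablim1 and Efnb2 rose at 12 h among the genes that work with these families. Of 16 co-receptors and receptors measured (neuropilins, Robos, Dcc, Neo1, Dscam, Met, Flrts, Rgms and Draxin), 1 rose at 12 h and 2 fell at 24 h. Nrp1, the co-receptor of class 3 semaphorins and of VEGF, read 4.82, 4.61 and 4.44 in control day 2.5 and 6.08, 5.68 and 5.72 in induced 12 h, a rise of 1.20 ± 0.252 (limma adjusted p = 0.0262). At 24 h its difference was 0.50 (0.351). Its mean went from 4.62 to 6.17 between the control days, where it was called higher, and from 5.83 to 6.68 between the induced times. Of 36 intracellular effectors measured of 38 listed, 1 rose at 12 h, and at 24 h 4 rose and 3 fell. Beside the counts of both lists, 0.813% of all genes rose at 12 h, and at 24 h 2.03% rose and 3.43% fell. Ablim1, an actin-binding protein, rose by 1.78 ± 0.158 (2.56e-05) at 12 h and by 1.06 ± 0.158 (0.000634) at 24 h. Srgap1, which acts in the Slit-Robo pathway, read 6.56, 6.05 and 6.08 in control day 3 and 7.97, 6.88 and 6.95 in induced 24 h. It rose by 1.04 ± 0.249 (limma adjusted p = 0.0226). Dpysl5, a collapsin response mediator, read 8.45, 8.08 and 8.11 against 6.23, 6.65 and 6.84 at 24 h, a difference of -1.64 ± 0.166 (1.9e-05). Dpysl3, of the same family, differed by -0.85 ± 0.141 (0.00168) at 24 h. Rgmb, a repulsive guidance molecule, differed by -0.84 ± 0.154 (0.00358) at 24 h. How the calls of these related genes depend on single arrays is not given here.

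In the family most like the EphA genes, the EphB receptors and B-class ephrins, 7 of 8 were measured. Only Efnb2, the arterial ephrin, passed at 12 h and 24 h, where 1.39% and 5.46% of all genes did. Efnb2 read 8.24, 8.23 and 8.30 against 8.90, 9.02 and 8.93 at 12 h, and 8.32, 8.53 and 8.61 against 9.56, 9.44 and 9.49 at 24 h. It rose by 0.70 ± 0.125 (limma adjusted p = 0.00815) and 1.01 ± 0.125 (0.000122). No gene of this family was called lower at either time, where 0.577% of all genes fell at 12 h and 3.43% at 24 h. At 24 h, 4 of 9 EphA receptors and 4 of 5 A-class ephrins were called lower. The 7 differences at 24 h ran from -0.35 to 1.01, with a median of -0.12. At 24 h every induced array lay below every control array for Efnb1, Efnb3 and Ephb6, and above for Efnb2, Ephb1 and Ephb4. Groups did not overlap for 18.5% of all genes at that time. The difference between the families was not tested.

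Lists of cell type markers moved in the same contrasts. Beside the counts of called markers below, 0.813% of all genes rose and 0.577% fell at 12 h. At 24 h 2.03% of all genes rose and 3.43% fell. The mean signal of 5 primitive streak markers (T was not measured) was 9.05 to 9.47 over the arrays of control day 3 and 5.58 to 6.05 over those of induced 24 h, and all 5 fell. That of 6 epiblast markers was 8.92 to 9.27 against 7.06 to 7.54, with 5 of 6 lower. That of 8 endothelial markers was 5.17 to 5.28 against 6.80 to 7.45, with 4 of 8 higher, and Emcn was below the 20th percentile of signal on all control arrays. At 12 h the streak means were 7.22 to 8.06 against 6.37 to 6.71 and the endothelial means 4.86 to 5.23 against 5.85 to 6.27, with 3 of 5 lower and 5 of 8 higher, while no feeder or neural marker was called. Fibroblast feeder markers gave 4.90 to 5.17 against 5.02 to 5.31 at 24 h (1 of 8 higher, Thy1; Lum below the 20th percentile on every array of both groups), and neural markers 5.46 to 5.57 against 5.43 to 5.65 (1 of 8 lower, Stmn2). The part of these shifts in cell type in the guidance gene differences was not tested.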

How the data were processed

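Expression was measured on 14 Affymetrix arrays. Per the submitters' processing notes, the authors made log2 values with Expression Console (Affymetrix) by RMA and deposited these. For versions and genome build the entry is "not given in the sources used here". Dim genes are compressed by RMA, and arrays carry no counts, so that their number limits the precision.

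Of 35556 probe sets, 21789 had 1 gene symbol in the platform annotation, 1621 several and 12146 were not listed. The 1-symbol probe sets gave 19938 genes, and 21698 of the probe sets were found in the RefSeq table. Each gene was tested with limma 3.58.1 (R 4.3.3; functions lmFit, then eBayes; group means, 12 arrays of 4 groups, 8 residual and 6.05 prior degrees of freedom), with Benjamini-Hochberg adjustment over all genes and a threshold of 0.05. The script was tested on simulated data. At 6 h, with 1 array a group, genes were counted at 2-fold.

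Same-numbered arrays deviated together within a day, with correlations of 0.573, 0.344 and 0.262 at 12 h and 0.517, 0.157 and 0.261 at 24 h. Replicate 2 of control day 3, however, correlated more with an induced 24 h array of another number (0.375). The numbers thus pair arrays within a day, except for replicate 2 at 24 h. Across days same-numbered arrays did not all deviate together (0.0411 for replicate 3 between control days, -0.00474 for replicate 2 between induced times).

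The members and lists were chosen with earlier results of these data known. Every called member is named with its arrays. Of members never called, each family's largest difference at 24 h is named, and the replicate-block calls were named after their values were seen. Up to 8 called genes of the related lists are named, of which 1 is not reported here. The fits were repeated with a replicate block, with cell line added, and with other normalization, priors, weights, probe set rules and filters, and arrays left out.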

Additional observations from a re-analysis of the deposited data

Results flagged for a closer look

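A test of the difference between the effects at 24 h and 12 h singled out 3 genes. The effect on Slit2 was more negative at 24 h by -2.10 on the log2 scale, that on Sema6d by -1.85 and that on Epha1 by -1.11. Between the control days the differences were 1.53 for Slit2, 1.68 for Sema6d and 0.26 for Epha1, and between the induced times they were -0.57, -0.18 and -0.85.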

How the results depend on the processing

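The 51 results on named members were recomputed under up to 26 alternatives. None of the 1320 values changed direction (1192 kept their side of the threshold, 118 lost it and 10 gained it). Most of the 51 were calls of the main fit, and the alternatives reused its arrays, so the kept directions are no independent support. Of the calls, 2 of 8 at 12 h (Sema6a and Epha1) and 12 of 23 at 24 h (Sema6a, Sema6d, Plxna2, Plxnb1, Plxnc1, Plxnd1, Epha1, Epha7, Efna3, Slit2, Slit3 and Ntn1) passed under every one. With arrays left out, counts ranged from 2 to 8 at 12 h, 15 to 25 at 24 h, 0 to 4 for the change, 0 to 7 between control days and 0 to 8 between induced times. The replicate block gave 10 members for the change, 9 between control days and 9 between induced times. Quantile normalization again gave 7 for the change and 7 between control days, leaving out dim genes gave 6 for the change, and a fit of the 2 induced groups alone gave 0 between induced times. Array weights, estimated gene by gene because the default estimate did not converge, gave 13 for the change, 10 between control days and 10 between induced times. At 6 h, 1.5-fold gave 6, where 1.4% of all genes were higher and 1.29% lower by that much. Some of these fits held fewer arrays or genes and others held all of them, and the cause of the moved counts was not tested. Leaving out dim genes gives no value for a member under the 40th percentile, and the change needs all 4 groups.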
